A study of Mus musculus with 4 samples.

Results

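Cycling fibroblasts are the connective tissue cells of muscle caught while copying their DNA or dividing. By a rule on transcripts, the name was given to 99 of 28163 cells of wild-type and dystrophic mouse muscle. Of the 99, 21 also held markers of another class, by limits given below. A cell was a barcode with at least 1000 unique molecular identifiers (UMIs, each counting 1 captured RNA molecule), at least 500 genes and at most 15% mitochondrial UMIs. Fibroblasts had at least 4 UMIs summed over Pdgfra, Lum, Dpt and Col6a3, and at most 1 UMI summed over Ptprc, Csf1r, Cdh5 and Pecam1, which mark immune and endothelial cells. Of 11453 fibroblasts passing these limits, the 99 had at least 3 UMIs summed over the proliferation genes Top2a, Mki67, Birc5, Ube2c and Cdk1, here called the cycle sum. A further 11160 fibroblasts had a cycle sum of 0. The cells were thus chosen by the levels of these 13 genes, whose values are given as a description.

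Mononuclear cells were taken from quadriceps, a limb muscle, and diaphragm, the main breathing muscle, of WT mice and of mdx5cv mice aged 14 weeks. The mdx5cv allele disrupts the dystrophin gene and is a model of Duchenne muscular dystrophy. Cells were cryopreserved, thawed and captured with droplet-based 3' chemistry, with 1 library for each of the 4 combinations of genotype and muscle. Strain, sex and the number of mice behind a library were not given in the sources used here. A difference between genotypes or muscles is therefore a difference between libraries, with no replicate check, and the 95% intervals printed with it cover counting error only.

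Fibroblasts of muscle, many of them Pdgfra-positive fibro-adipogenic progenitors, rest in healthy adult tissue, divide after injury and lay down collagen and other matrix. Cells about to copy their DNA switch on E2F target genes such as the Mcm helicase subunits, Pcna and the ribonucleotide reductase subunits. Cells approaching mitosis switch on mitotic kinases, cyclins and spindle proteins. Many of the genes for these are under the control of the DREAM and MuvB complexes. The complexes work with factors bound to CCAAT boxes and to an element called the cell cycle homology region.

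The promoters of 3 of the genes that chose the cells, and of the replication gene Mcm5, are printed because they show the letters associated with these programmes. Each is the 250 bases before the RefSeq start in build GRCm38.p6, read along the gene's own strand. Top2a, encoding a topoisomerase that untangles chromosomes, lies on the minus strand at chr11:99024190-99024439. Ube2c, encoding an enzyme that marks mitotic cyclins for destruction, lies on the plus strand at chr2:164769679-164769928. Cdk1, the kinase that drives mitosis, lies on the minus strand at chr10:69352913-69353162. Mcm5, a subunit of the replicative helicase, lies on the plus strand at chr8:75109259-75109508. Capitals mark the box CCAAT, the cell cycle homology letters TTTGAA, the related homology letters TTCGAA, and the E2F letters TTTCCCGC, TTTGGCGC, TTTCGCGC and TTTGCCGC, on either strand. The form with TTCGAA reads alike on both strands.
Top2a: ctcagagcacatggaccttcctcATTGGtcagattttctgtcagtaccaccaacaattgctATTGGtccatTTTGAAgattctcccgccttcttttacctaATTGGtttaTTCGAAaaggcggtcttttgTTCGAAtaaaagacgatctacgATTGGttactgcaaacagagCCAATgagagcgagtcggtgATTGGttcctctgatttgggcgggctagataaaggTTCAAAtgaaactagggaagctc
Ube2c: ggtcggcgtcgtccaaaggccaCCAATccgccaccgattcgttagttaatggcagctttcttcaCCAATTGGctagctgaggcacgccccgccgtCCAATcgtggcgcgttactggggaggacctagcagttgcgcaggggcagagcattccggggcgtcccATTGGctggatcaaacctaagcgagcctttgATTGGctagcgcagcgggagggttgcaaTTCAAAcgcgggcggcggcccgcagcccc
Cdk1: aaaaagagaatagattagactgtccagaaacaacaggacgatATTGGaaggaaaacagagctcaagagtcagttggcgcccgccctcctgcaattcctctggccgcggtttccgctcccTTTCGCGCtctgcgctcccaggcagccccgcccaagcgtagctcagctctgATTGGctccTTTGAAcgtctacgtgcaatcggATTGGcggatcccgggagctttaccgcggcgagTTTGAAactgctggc
Mcm5: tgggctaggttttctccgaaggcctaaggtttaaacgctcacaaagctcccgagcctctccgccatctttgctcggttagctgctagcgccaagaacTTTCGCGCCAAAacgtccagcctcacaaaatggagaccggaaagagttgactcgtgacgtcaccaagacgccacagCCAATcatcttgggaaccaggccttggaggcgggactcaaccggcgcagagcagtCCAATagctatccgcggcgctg
The Top2a and Ube2c windows hold CCAAT and cell cycle homology letters and no E2F letters. The Cdk1 window holds all 3 kinds. The Mcm5 window holds E2F letters that overlap on both strands, and CCAAT. The Birc5 window of the same length holds none of these letters.

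Cycling fibroblasts were a larger share of fibroblasts in the mdx5cv libraries than in the WT libraries. They numbered 54 of 1449 fibroblasts in mdx5cv quadriceps, 3.73% (exact 95% interval 2.81 to 4.83). In mdx5cv diaphragm they were 29 of 3016, 0.962% (0.645 to 1.38). In WT diaphragm they were 15 of 6144, 0.244% (0.137 to 0.402), and in WT quadriceps 1 of 844, 0.118% (0.003 to 0.658). The interval of mdx5cv quadriceps lies above the other 3, and that of mdx5cv diaphragm lies above WT diaphragm and overlaps the wide interval of WT quadriceps. A cell read more deeply has more chances of reaching the cycle sum, so each fibroblast with at least 2000 UMIs was also thinned to 2000. The shares were then 1.62% (22 of 1357) in mdx5cv quadriceps, 0.386% (11 of 2848) in mdx5cv diaphragm, 0.203% (12 of 5915) in WT diaphragm and 0.130% (1 of 767) in WT quadriceps. The order of the 4 libraries was the same, and after thinning the intervals of the 2 diaphragm libraries overlapped (0.193 to 0.690 against 0.105 to 0.354).

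**Figure D1:**
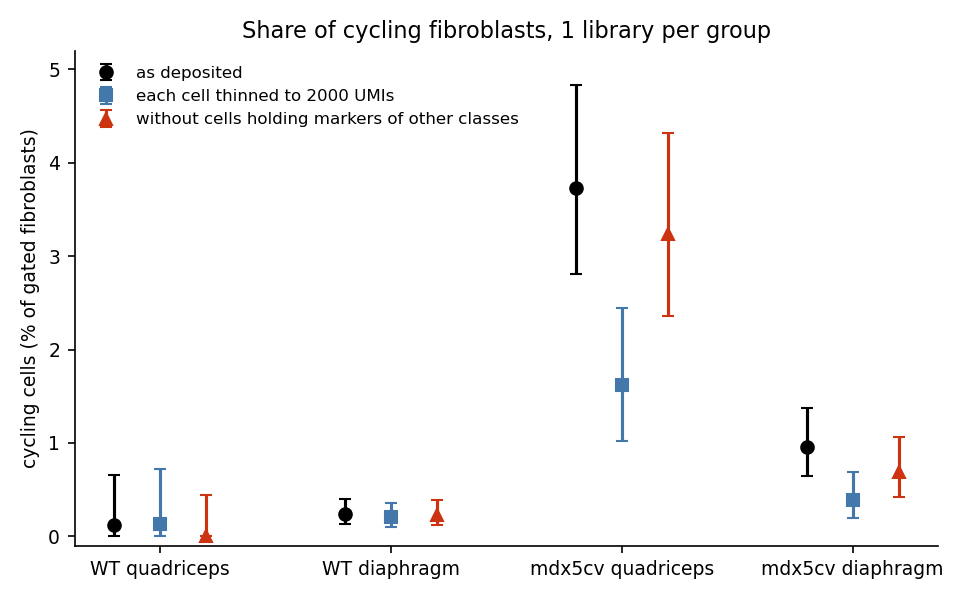
Share of fibroblasts with a cycle sum of at least 3 (y axis, percent) in each of the 4 libraries (x axis). Points are shares and bars exact 95% binomial intervals, as deposited, with each cell thinned to 2000 UMIs, and without cells holding markers of other classes. The mdx5cv quadriceps share is above the other 3 libraries in each of the 3 versions (3.73%, 1.62% and 3.23%).

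The same cycle sum was reached by other cells in different proportions. No endothelial cell reached it, with 0 of 1931 in WT quadriceps, which allows a share of up to 0.191%, and 0 of 40, 386 and 297 in WT diaphragm, mdx5cv quadriceps and mdx5cv diaphragm. Among immune cells the share was 5.06%, 2.79%, 8.51% and 4.45% in the WT quadriceps and diaphragm and the mdx5cv quadriceps and diaphragm, in that order. Depth differed between the classes, and these shares were not thinned. In the same order, median UMIs were 1834, 2277.5, 2270 and 2495 in endothelial cells. They were 4367.5, 5212, 6336 and 6392.5 in immune cells, and 3536.5, 4560, 5180 and 4833.5 in fibroblasts. RNA outside cells, read from barcodes of 10 to 100 UMIs, held 0.566, 0.400, 1.84 and 1.03 UMIs of the 5 cycle genes per 10000 UMIs in the same order.

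The rule favours deeply read cells, which reach a cycle sum of 3 more easily, so depth is no independent trait of the cells chosen. Outside WT quadriceps the cycling cells had high UMI counts. Their median UMI count was 10666 in WT diaphragm, 16088 in mdx5cv quadriceps and 16676 in mdx5cv diaphragm, against 4550.5, 4894.5 and 4798 in fibroblasts of the same library with a cycle sum of 0. They were therefore compared with depth neighbours: for each cycling cell, the 3 fibroblasts of its own library with a cycle sum of 0 that were nearest in UMIs, 297 in all. The neighbours' median UMI counts were 10626, 14150 and 16692. The only cycling cell of WT quadriceps had 3315 UMIs, of which 14.5% were mitochondrial, and it entered no comparison of genes.

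Within the cycling cells, the cycle sum ran from 3 to 122. It was 10 or more in 57 cells, 4 to 9 in 31 and exactly 3 in 11, and 49 cells had UMIs of all 5 cycle genes. The median was higher in WT diaphragm (61, range 3 to 95) than in mdx5cv quadriceps (11.5, range 3 to 110) and mdx5cv diaphragm (8, range 3 to 122). Top2a had a median of 9.49 UMIs per 10000 in WT diaphragm, 1.64 in mdx5cv quadriceps and 2.58 in mdx5cv diaphragm. Mki67, which coats mitotic chromosomes, had medians of 6.11, 1.68 and 1.03 in the same order. Birc5, which encodes survivin of the chromosomal passenger complex, had medians of 7.37, 2.94 and 2.18. Pdgfra, the receptor that marks these fibroblasts, had medians of 2.73, 2.57 and 2.09 in cycling cells and of 4.09, 2.94 and 2.22 in the neighbours.

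Genes of DNA replication and of mitosis outside the rule were used to describe the phases of the cells. They belong to the same programme as the rule's genes, so their rise with the cycle sum comes with the choice. Summed over the libraries, a list of 35 S phase genes held 33.1 UMIs per 10000 in cells with a cycle sum of at least 10, 18.7 at 4 to 9 and 20.9 at 3. A list of 40 genes of G2 and M phase held 58.2, 22.3 and 13.5. The depth neighbours held 5.12 and 2.63. Cells just outside the limit, with a cycle sum of 2, held 9.66 and 7.39, and cells with a sum of 1 held 5.05 and 3.08. Median cells stood at 23.7 for S phase and 63.2 for G2 and M with a cycle sum of at least 10, and at 11.6 and 12.3 with a sum of 3, so the excess of S phase in the sums of the 11 cells at 3 was not that of their median cell. Of 98 cycling cells with at least 10 UMIs over both lists, 45 had over 75% of them in the G2 and M list, 18 had under 25% and 35 lay between. The median share of G2 and M transcripts was 76.2% in WT diaphragm, 73.3% in mdx5cv quadriceps and 64% in mdx5cv diaphragm. Mitotic genes are among those that chose the cells, so these shares do not give the phases of all dividing fibroblasts.

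**Figure D2:**
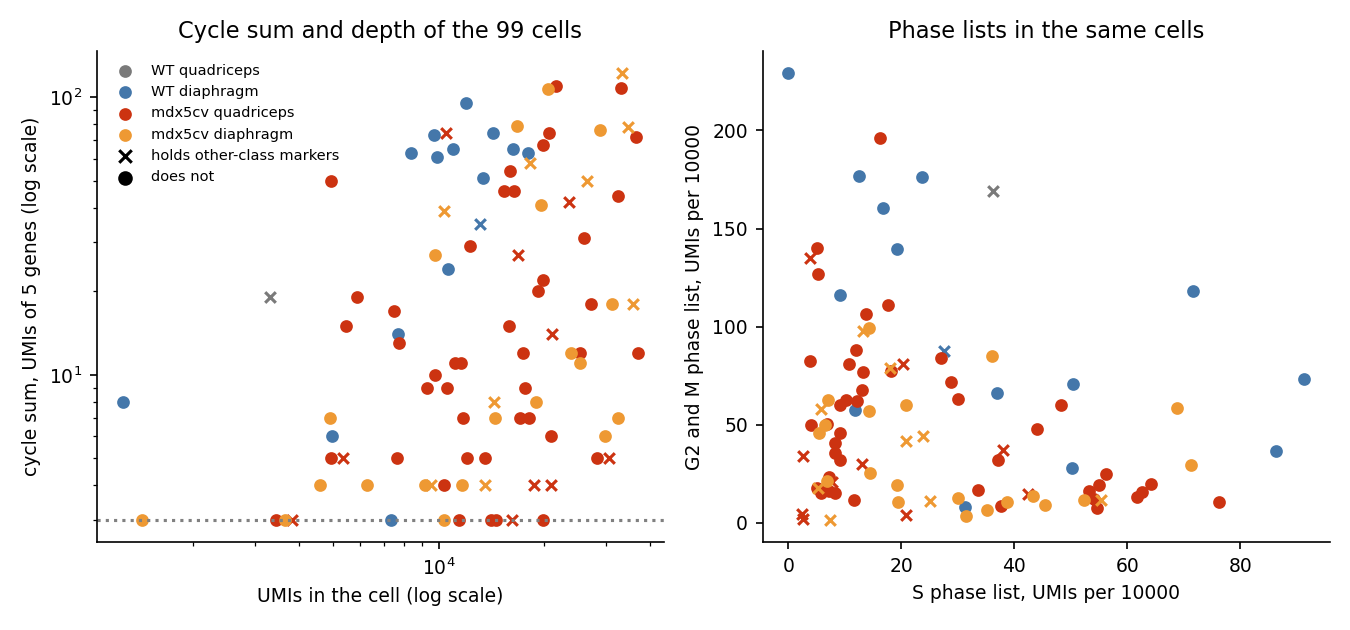
Left, cycle sum (y axis, UMIs of 5 genes, log scale) against UMIs per cell (x axis, log scale) for the 99 cycling fibroblasts, with a dotted line at the limit of 3. Right, UMIs per 10000 of the G2 and M list (y axis) against the S phase list (x axis) in the same cells. Colours give the library and crosses the 21 cells that hold markers of another class. Cells high in the S phase list are mostly low in the G2 and M list.

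The label was checked against markers of other cell types. A list of 22 macrophage genes summed to 234.5 counts per 1000000 UMIs of the class (CPM) in cycling cells and 765.7 in neighbours of WT diaphragm, with 17 of the 22 genes at 0 in the cycling cells, among them Adgre1, Cd68, C1qa and Lyz2. It summed to 811.3 against 947.2 in mdx5cv quadriceps, with 1 gene at 0, and to 551.2 against 845.5 in mdx5cv diaphragm, with 5 at 0. Single barcodes weighed on these sums, since 1 neighbour of WT diaphragm held 276 UMIs over 10 of these genes. Counted by cell, at least 20 UMIs of the 10 genes were held by 7 of 99 cycling cells (7.07%, exact 95% interval 2.89% to 14.0%) and 11 of 297 neighbours (3.70%, 1.86% to 6.53%), and these intervals overlap. Lum was detected in 90 of the 99 cells, Dpt in 94, Col6a3 in 97 and Pdgfra in 82. Since Pdgfra was not detected in every cell, the cells are called cycling fibroblasts by their rule.

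Some of the 99 cells held markers of another class. By limits chosen after the values were seen, 12 cells held at least 4 UMIs of 7 myogenic genes, 7 held at least 20 of 10 macrophage genes, and 2 each passed the limits for lymphocytes and for pericytes. Counted once each, these were 21 of 99 cycling cells (1 of 1, 1 of 15, 10 of 54 and 9 of 29 in the same order of libraries as the shares) and 25 of 297 neighbours. The 12 myogenic cells were 5 of mdx5cv quadriceps and 7 of mdx5cv diaphragm, and Pdgfra was 0 in 8 of them. A list of 10 muscle stem cell markers summed to 508.8 CPM in the cycling cells of mdx5cv diaphragm and to 178.6 in their neighbours. In WT diaphragm and mdx5cv quadriceps it summed to 82.4 against 44.7 and 345.9 against 378. In WT diaphragm, mdx5cv quadriceps and mdx5cv diaphragm, T and B cell markers summed to 82.4, 7.89 and 42.4 CPM against 6.38, 7.17 and 15.1. In WT diaphragm 1 cell held all 13 of these UMIs. Pericyte and smooth muscle markers summed to 38.0, 199.5 and 161.9 CPM against 106.3, 153.6 and 55.6. Des stands in both this list and that of muscle stem cell markers. In mdx5cv diaphragm 0 of 29 cycling cells passed the pericyte limit, whose genes leave Des out. Endothelial and tenocyte markers summed lower in the cycling cells of each of these libraries. Whether the 21 cells are mixed droplets or cells of another class was not tested. Results are given with all 99 cells, and the values without the 21 cells and the neighbours of the same kind are given beside gene lists and genes whose calls depended on them. Without them the median of the 4 macrophage genes still tested was 0.60, against -0.45 for 12 genes with all cells.

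Cycling fibroblasts and their depth neighbours were compared across the 3 libraries with at least 10 cycling cells. UMIs were summed per library and class and tested with edgeR's quasi-likelihood test, with library as a block and Benjamini-Hochberg adjustment over 7588 genes. Genes higher in cycling cells at an adjusted p below 0.05 numbered 488 (6.43%), and genes lower numbered 296 (3.9%). Of these, 486 and 294 had the same direction in all 3 libraries. The same sums made the calls, so this is no separate check. Without the 21 cells the test called 383 higher and 210 lower of 6871 genes. All 462 of the higher genes and all 288 of the lower genes that were tested again kept their direction, and 373 and 188 of them kept their call. The second test shares most of its cells with the first and is no replicate of it.

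The cell cycle lists rose nearly whole, which the choice of cells on 5 genes of the same programme brings with it, and they are given as a description. Of the S phase list 33 of 33 tested genes were higher, with a median log2 fold change of 2.73. Of the G2 and M list 37 of 38 were higher, with a median of 6.52. Of a list of chromatin and tubulin genes of dividing cells 21 of 22 were higher, with a median of 3.31, and over all genes tested the median was -0.02. Many mitotic genes had no UMI in the neighbours, so UMIs are printed here in place of ratios. Such genes passed the count filter through the cycling cells alone. Their fitted fold changes have no firm size, and they enter the median of the G2 and M list. Pbk, a mitotic kinase, had 120, 69 and 69 UMIs in the cycling cells of WT diaphragm, mdx5cv quadriceps and mdx5cv diaphragm and 0 in the neighbours of each. Prc1, which bundles the spindle midzone, had 136, 138 and 128 against 0, 3 and 1. Ccnb1, cyclin B, had 38, 90 and 60 against 0, 0 and 1. Replication genes had measurable levels in the neighbours. Pcna, the sliding clamp of DNA polymerase, was at 393, 278.3 and 240.9 CPM against 68.1, 67.2 and 57.2, a log2 fold change of 2.14 (SE 0.19). Mcm5 was at 76.1, 104.8 and 75.2 CPM against 6.38, 10.8 and 17.5. The 2 classes did not overlap in either gene. How many of all tested genes lacked overlap was not counted, so non-overlap is given here and below as a description only. Foxm1, the transcription factor that drives mitotic genes, was at 114.1, 54.1 and 63.6 CPM against 2.13, 2.24 and 3.97.

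The promoter letters shown above were more frequent among these genes than among promoters at large. Windows of 300 bases, from 250 before to 50 after the start, were matched for 383 of the 488 higher genes, 216 of the 296 lower genes and 6078 of the 7588 genes tested. The cell cycle homology letters stood in 34.5% of the higher genes, 14.4% of the lower genes and 16.0% of the genes tested, against 21.7% of all 27025 genes in the table. In the G2 and M list they stood in 24 of 33 matched genes (72.7%). CCAAT stood in 58.7% of the higher, 40.7% of the lower and 42.8% of the tested genes, against 41.1% of all genes in the table. The E2F letters stood in 14.6% of the higher, 1.39% of the lower and 5.05% of the tested genes, against 2.60% of all genes in the table. They stood in 11 of 27 matched genes of the S phase list (40.7%) and in none of the 33 matched G2 and M genes. These shares describe letters in a window and not bound sites.

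Among regulators of the cell cycle outside those lists, the inhibitors of early G1 kinases Cdkn2c (p18) and Cdkn2d (p19) rose. The choice of cells on 5 cycle genes bears on such regulators too, so their rise does not stand apart from it. Cdkn2c was at 431.0, 80.0 and 80.9 CPM in cycling cells of WT diaphragm, mdx5cv quadriceps and mdx5cv diaphragm and at 14.9, 10.3 and 10.3 in neighbours (log2 fold change 3.43, SE 0.30, edgeR adjusted p = 4.0e-07). Cdkn2d was at 462.7, 71.0 and 92.5 CPM against 19.1, 17.5 and 13.5 (2.89, SE 0.32, edgeR adjusted p = 7.7e-06). The classes did not overlap in either gene, and the cycling cells of WT diaphragm stood highest in both. Of 15 tested inhibitors and p53 targets, 3 were higher and 1 lower, with a median log2 fold change of -0.11. Without the 21 cells 2 were higher and 2 lower: Cdkn2c and Cdkn2d kept the call, Trp53 and Gadd45b lost it, and the inhibitor Cdkn1c (-1.64) and Gadd45a (-1.72) were called lower. The D cyclins moved apart. Ccnd1, cyclin D1, was at 139.4, 78.9 and 52.0 CPM against 25.5, 44.3 and 13.5 (log2 fold change 1.41), and Ccnd2, cyclin D2, was at 25.4, 98.0 and 98.3 against 168.0, 186.3 and 192.9 (-1.17). The Ccnd1 call was lost without the 21 cells (0.95, edgeR adjusted p = 0.11), and the Ccnd2 call was kept (-1.17, edgeR adjusted p = 0.011).

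Genes of growth metabolism were higher in part. These values, too, are from cells chosen on 5 cycle genes. Tk1, the thymidine kinase of the nucleotide salvage pathway, had a log2 fold change of 6.62, with 272.6, 121.7 and 115.6 CPM in cycling cells and 0, 2.24 and 0 in neighbours. It and Phgdh, which opens serine synthesis, were the 2 of 19 tested nucleotide and one-carbon genes that were higher, and the median of the list was 0.50. Of 17 ribosome biogenesis genes none passed the test in either direction, with a median of 0.11. Of 11 glycolysis genes 5 were higher and 1 lower. Gapdh was at 1724, 840.6 and 1657 CPM against 789.1, 620.7 and 936.0 (0.75), and Pgk1 at 297.9, 243.4 and 343.0 against 119.1, 149.1 and 207.2 (0.83). None of the glycolysis genes was called higher without the 21 cells, where Gapdh had 0.56 (edgeR adjusted p = 0.073) and Pgk1 0.65 (edgeR adjusted p = 0.062). Without mdx5cv diaphragm, Gapdh (0.69, edgeR adjusted p = 0.16) and Pgk1 (0.89, edgeR adjusted p = 0.084) also lost the call. The Phgdh call (log2 fold change 1.04, edgeR adjusted p = 0.028) was lost without mdx5cv quadriceps (1.01, edgeR adjusted p = 0.26) or mdx5cv diaphragm (1.015, edgeR adjusted p = 0.25), and without the 21 cells (0.92, edgeR adjusted p = 0.095).

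**Figure D3:**
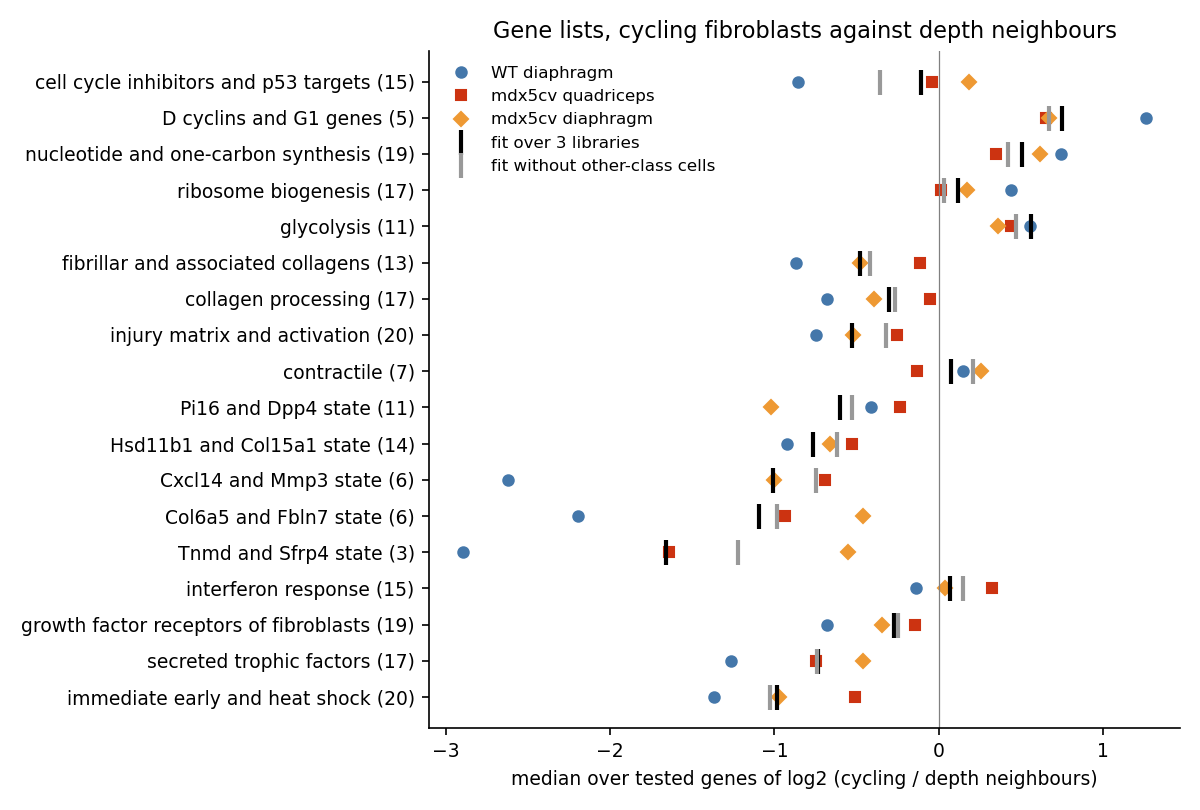
Median log2 ratio of cycling fibroblasts over depth neighbours (x axis) for gene lists outside the cell cycle (y axis, tested genes in brackets). Symbols give the 3 libraries, black ticks the median of the fitted values over the 3 libraries and grey ticks the same without cells holding markers of other classes. Immediate early genes and the lists of fibroblast states lie below 0, and ribosome biogenesis lies at 0.11.

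Genes of differentiated fibroblast states were lower in cycling cells. The state lists were chosen with earlier results of these libraries known, so their counts are no independent evidence of a direction. Of the tested genes of the parenchymal Hsd11b1 and Col15a1 state 7 of 14 were lower, of the Cxcl14 and Mmp3 state 4 of 6, of the Col6a5 and Fbln7 state 4 of 6, of the Tnmd and Sfrp4 state 3 of 3, and of the progenitor-like Pi16 and Dpp4 state 3 of 11. No gene of these 5 lists was higher. Their medians were -0.76, -1.01, -1.09, -1.66 and -0.60, and without the 21 cells -0.62, -0.75, -0.98, -1.22 and -0.53. Without those cells 4, 3, 3, 2 and 2 genes were lower in the same order, and Tnmd (-1.19, edgeR adjusted p = 0.16) and Col6a5 (-0.99, edgeR adjusted p = 0.13) were among those that lost the call.

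Pi16, a secreted protein of adventitial progenitor-like fibroblasts, was at 690.9, 6.76 and 84.8 CPM in cycling cells of WT diaphragm, mdx5cv quadriceps and mdx5cv diaphragm and at 2108, 88.2 and 292.2 in neighbours. Its log2 fold change was -2.06 (SE 0.26, edgeR adjusted p = 2.6e-05). It was lower in all 3 libraries, and the libraries also differed: the cycling cells of WT diaphragm were above the neighbours of both mdx5cv libraries. In mdx5cv quadriceps 7.41% of cycling cells had a UMI of Pi16 against 27.2% of neighbours. Sfrp4, a secreted Wnt antagonist, was at 25.4, 12.4 and 11.6 CPM against 210.6, 36.3 and 224.7 (-3.02, SE 0.37, edgeR adjusted p = 2.0e-05), the largest fall of a gene outside the cell cycle lists. Cxcl14, a chemokine, was at 44.4, 775.3 and 73.2 CPM against 227.6, 1481 and 323.9 (-1.58, SE 0.25, edgeR adjusted p = 0.00028). Smoc2, a matricellular protein of the parenchymal state, was at 456.4, 787.7 and 476.0 CPM against 1074, 1197 and 918.6 (-0.94), and here the classes did not overlap.

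Other secreted products fell with them. Dcn, the small proteoglycan decorin that binds collagen fibrils, was at 8538, 2247 and 3690 CPM in cycling cells and at 16945, 4984 and 8655 in neighbours (log2 fold change -1.16, SE 0.12, edgeR adjusted p = 3.7e-06). The fall was seen cell by cell: the median cycling cell had 74.1, 19.9 and 38.7 UMIs of Dcn per 10000, and the median neighbour 164.9, 38.6 and 95.6. Prg4, the lubricating proteoglycan, was at 57.0, 95.8 and 96.4 CPM against 470.1, 336.3 and 223.1 (-1.85), with no overlap between the classes. Spon2, a secreted matrix protein, was at 38.0, 18.0 and 3.85 CPM against 85.1, 74.8 and 58.0 (-2.21).

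Eln, which encodes elastin, was at 120.4, 162.3 and 323.8 CPM in cycling cells against 574.3, 667.7 and 1062 in neighbours (-1.98, SE 0.19, edgeR adjusted p = 1.2e-06). The median cell had 0.764, 1.13 and 2.10 UMIs of Eln per 10000 in cycling cells and 1.82, 1.08 and 2.59 in neighbours. In WT diaphragm 53.3% of cycling cells had a UMI of Eln against 75.6% of neighbours. In mdx5cv quadriceps the medians were close, and the top 5% of neighbours held 48.0% of their Eln UMIs. Slfn5, an interferon-inducible Schlafen gene, differed instead in how many cells had a UMI: 13.3%, 24.1% and 24.1% of cycling cells against 57.8%, 69.1% and 67.8% of neighbours (-1.96, SE 0.26, edgeR adjusted p = 4.3e-05).

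Of 17 tested secreted trophic factors 4 were lower and none higher, with a median of -0.74, and 6 of 16 were lower without the 21 cells. Fst, follistatin, which binds activin and myostatin, was at 101.4, 64.2 and 28.9 CPM against 142.5, 184.9 and 71.5 (log2 fold change -1.26, edgeR adjusted p = 0.0013). The Fst call was lost without mdx5cv quadriceps (-0.96, edgeR adjusted p = 0.13). Igf1, the growth factor for regenerating fibres, was at 196.5, 302.0 and 350.7 CPM against 478.6, 506.5 and 526.4 (-0.84, edgeR adjusted p = 0.0067). The Igf1 call was lost without the 21 cells (-0.61, edgeR adjusted p = 0.12). Of 19 growth factor receptors 1, the TGF-beta coreceptor Tgfbr3, was lower (-0.98, edgeR adjusted p = 0.0079) and none higher, and without the 21 cells none was called. The Tgfbr3 call was also lost without mdx5cv diaphragm (-0.76, edgeR adjusted p = 0.21).

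Fibrillar collagen transcripts were lower in cycling cells, only slightly so in mdx5cv quadriceps. The 14 genes of the list summed to 0.563 times the neighbours' CPM in WT diaphragm (95% interval 0.532 to 0.594), 0.942 times in mdx5cv quadriceps (0.932 to 0.952) and 0.661 times in mdx5cv diaphragm (0.649 to 0.673). Of 13 tested collagens 5 were lower and none higher, with a median log2 fold change of -0.48, and 3 of them kept the call without the 21 cells. Col1a1 was at 722.6, 12390 and 4652 CPM in cycling cells of WT diaphragm, mdx5cv quadriceps and mdx5cv diaphragm against 1699, 12650 and 7908 in neighbours (-0.68, SE 0.18, edgeR adjusted p = 0.022). In mdx5cv quadriceps, where most of the cycling cells were, the levels of the classes were thus close. Col3a1 was at 4076, 16640 and 10940 CPM against 5879, 18340 and 17420 (-0.48, SE 0.13, edgeR adjusted p = 0.021). The Col1a1 call was lost without WT diaphragm (-0.40, edgeR adjusted p = 0.17) or without mdx5cv diaphragm (-0.68, edgeR adjusted p = 0.16). The Col3a1 call was lost without WT diaphragm, mdx5cv quadriceps or mdx5cv diaphragm, with edgeR adjusted p = 0.096, 0.093 and 0.40. Of 17 genes that process collagen none passed the test, with a median of -0.30.

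Of 20 tested injury matrix genes 8 were lower and none higher, with a median of -0.53, and 5 of 19 were lower without the 21 cells, with a median of -0.32. Cilp, a matrix protein, was lower in the median cell too, with 0, 9.38 and 11.5 UMIs per 10000 among cycling cells and 8.97, 14.6 and 22.9 among neighbours. Timp1, an inhibitor of matrix metalloproteinases, was at 126.8, 1267 and 1908 CPM in cycling cells against 291.4, 1957 and 2819 in neighbours (log2 fold change -0.74, edgeR adjusted p = 0.0090). For Timp1 the median cell was not lower: it had 0.938, 8.99 and 13.9 UMIs of Timp1 per 10000 among cycling cells and 0, 5.54 and 4.78 among neighbours. The top 5% of neighbours held 74.5%, 43.1% and 39.0% of the neighbours' Timp1 UMIs. Postn, periostin, was at 234.5, 4053 and 2338 CPM against 582.8, 5537 and 3252 (-0.70, edgeR adjusted p = 0.015), with medians per cell of 0.938, 36.7 and 17.3 against 0.662, 30.1 and 17.4 UMIs per 10000. Both had the opposite sign when set against all fibroblasts with a cycle sum of 0, at 0.28 and 0.29. The Timp1 call was lost without mdx5cv quadriceps (-0.83, edgeR adjusted p = 0.074) or mdx5cv diaphragm (-0.92, edgeR adjusted p = 0.057). The Postn call was lost without mdx5cv quadriceps (-0.86, edgeR adjusted p = 0.068) and without the 21 cells (-0.53, edgeR adjusted p = 0.12). Over all genes, the cells leaned to the side of the call in all 3 libraries for 485 of the 488 higher genes and for 271 of the 296 lower genes. These were the same cells whose sums made the calls.

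Among the lists outside the cell cycle, the most genes called were immediate early and heat shock genes, which respond within minutes to stimulation and to tissue dissociation. Of 20 tested 16 were lower and none higher, with a median log2 fold change of -0.98, and 14 of 19 were lower without the 21 cells, with a median of -1.03. Fos was at 906.4, 105.9 and 175.4 CPM in cycling cells of WT diaphragm, mdx5cv quadriceps and mdx5cv diaphragm against 2731, 164.8 and 496.2 in neighbours (-1.30, SE 0.20, edgeR adjusted p = 0.00028). Egr1 was at 950.8, 200.6 and 244.7 CPM against 2720, 304.1 and 584.3 (-1.16, SE 0.19, edgeR adjusted p = 0.00054). Hspa1b, an inducible Hsp70, was at 2047, 726.8 and 1220 CPM against 5566, 1110 and 1906 (-0.93, SE 0.18, edgeR adjusted p = 0.0021). All were lower in each library, and the level was highest in WT diaphragm in both classes.

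Of 15 tested interferon response genes 1 was higher. Cxcl10, an interferon-induced T cell chemokine, was at 209.2, 47.3 and 134.9 CPM in cycling cells against 17.0, 37.2 and 17.5 in neighbours (log2 fold change 1.87, edgeR adjusted p = 0.0054). The value was 3.71 without the 21 cells. The Cxcl10 call was lost without WT diaphragm (1.47, edgeR adjusted p = 0.066) or mdx5cv diaphragm (1.41, edgeR adjusted p = 0.061). Among macrophage markers Cx3cr1, a chemokine receptor, was called higher (2.32), but the difference lay in 1 library: it was at 0, 130.7 and 21.2 CPM in cycling cells against 2.13, 11.6 and 17.5 in neighbours. In mdx5cv quadriceps 12.96% of cycling cells had a UMI of Cx3cr1, and 1 of them held 50.5 UMIs per 10000. Without mdx5cv quadriceps Cx3cr1 was too low to be tested. Lyz2, lysozyme, was lower (-1.85). Without the 21 cells and the neighbours of the same kind its value was -0.04, but Lyz2 is among the macrophage genes that chose them. Des, desmin of muscle cells, was higher (1.37), with 25.4, 49.6 and 92.5 CPM against 10.6, 35.8 and 13.5. The Des call was lost without WT diaphragm (1.36, edgeR adjusted p = 0.070) or mdx5cv diaphragm (0.55, edgeR adjusted p = 0.70), and its value was 0.08 with a fibroblast sum of at least 8. Without the 21 cells Des was too low to be tested.

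**Figure D4:**
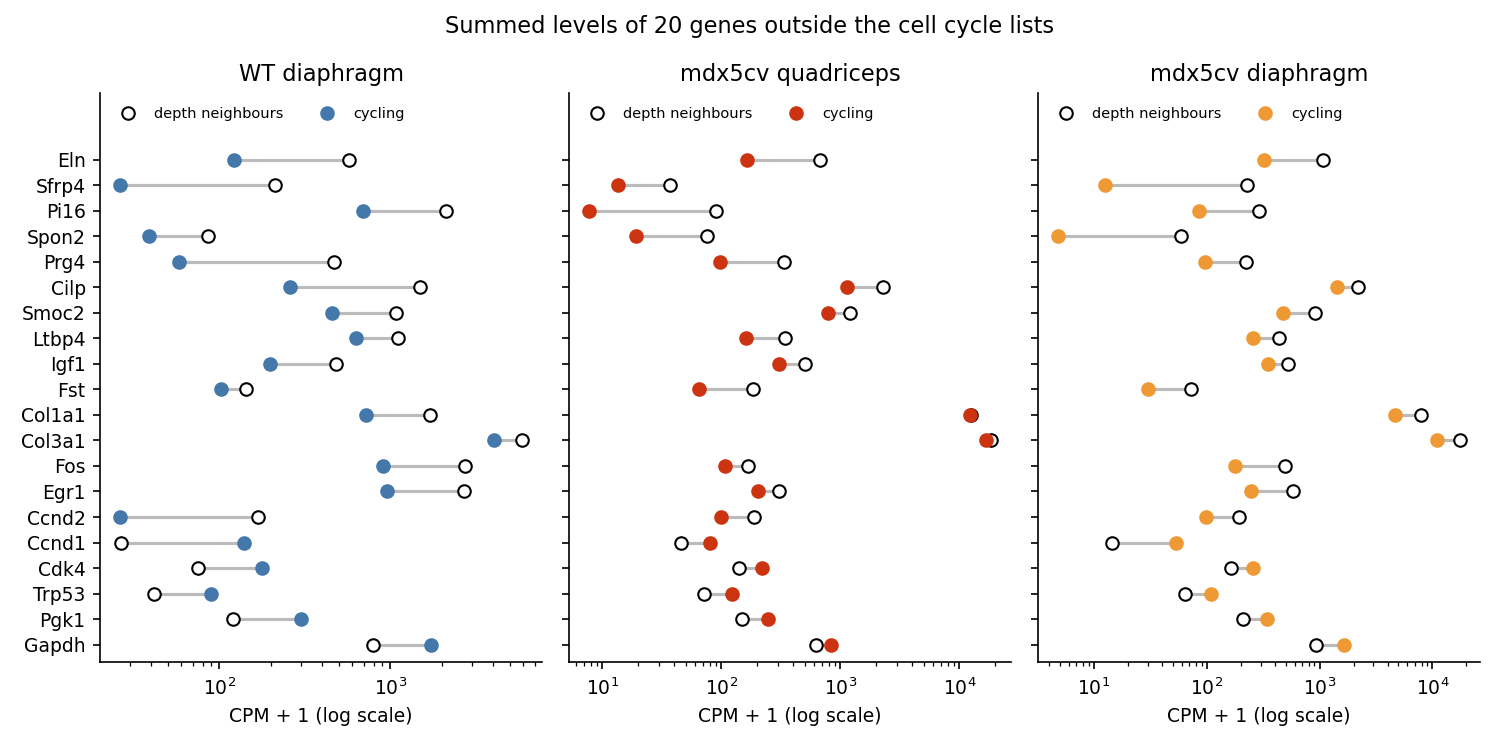
Summed level (x axis, CPM plus 1, log scale) of 20 genes outside the cell cycle lists (y axis) in cycling fibroblasts (filled) and depth neighbours (open) of 3 libraries. Eln, Sfrp4 and Pi16 are lower in cycling cells in each panel. Col1a1 lies at 12390 and 12650 CPM in mdx5cv quadriceps, where the symbols overlap.

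Genotype was then compared within cycling cells in diaphragm, and the 15 cells of WT diaphragm limit what can be seen. A gene was called at a ratio of CPM of at least 1.5-fold with a 95% interval that excluded 1. Of 6850 genes with at least 20 CPM in either library, 543 were called higher in mdx5cv (7.93%) and 1075 lower (15.7%). Between the neighbours of the same libraries 585 and 854 were called. Calls between neighbours, here and in the lists, cover only genes of these 6850 that also reached 20 CPM in neighbours. The neighbours' sums held more UMIs: 470155 against 157767 in WT diaphragm and 1259575 against 518913 in mdx5cv diaphragm. The counts of the 2 classes are thus not on equal terms. Of 12 collagens 9 were higher in mdx5cv cycling cells and none lower. Of 16 injury matrix genes 10 were higher. The same lists gave 8 and 10 between the neighbours.

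Injury matrix transcripts were at high levels in cycling cells of the mdx5cv diaphragm. Postn was at 2338 CPM in them against 234.5 in cycling cells of WT diaphragm, a ratio of 9.97 (7.19 to 14.2), and the ratio between neighbours was 5.58. Timp1 had a ratio of 15.1 (9.69 to 24.8) in cycling cells and 9.68 in neighbours. Col1a1 had a ratio of 6.44 (5.33 to 7.84) and 4.65. Tnc, tenascin C, had 462 UMIs in cycling cells of mdx5cv diaphragm and 1 in those of WT diaphragm, a ratio of 140.5 with a wide interval (25.1 to 5560). Cthrc1, a collagen-associated repair protein, had 189 UMIs and 1, a ratio of 57.5 (10.2 to 2281). Cilp, a matrix protein, and Thbs4, a thrombospondin, had ratios of 5.50 (4.02 to 7.73) and 9.21 (6.80 to 12.8), against 1.47 and 2.60 in neighbours. Whether the ratio differs between cycling cells and neighbours was not tested.

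The progenitor-like genes went the other way. Of 15 genes of the Pi16 and Dpp4 state 14 were lower in mdx5cv cycling cells, and 13 between neighbours. Pi16 had a ratio of 0.123 (0.0844 to 0.176), and 0.139 in neighbours. Ackr3, the scavenging receptor for Cxcl12, had 3 UMIs in mdx5cv diaphragm and 84 in WT diaphragm, a ratio of 0.0109 (0.0022 to 0.0328). Of 19 immediate early and heat shock genes 17 were lower in mdx5cv cycling cells, as were 17 between neighbours, with Fos at 0.194 (0.147 to 0.253) and 0.182. Of 14 interferon response genes 6 were higher and 1 lower, with Isg15 at 53 UMIs against 1, a ratio of 16.1 (2.77 to 648.3).

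**Figure D5:**
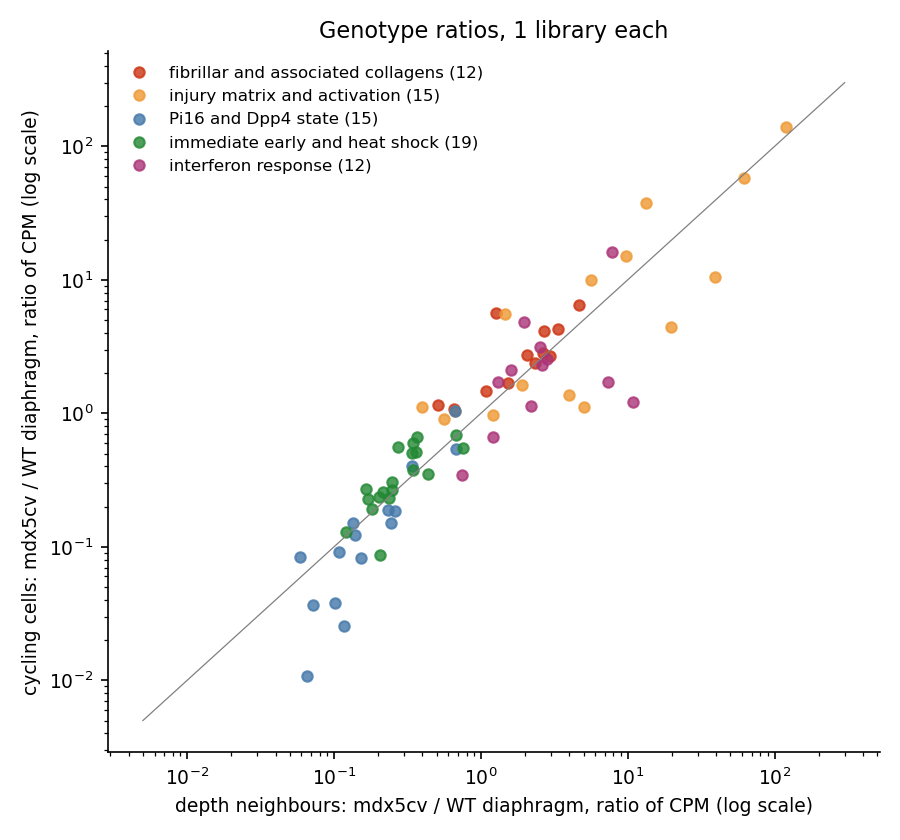
Ratio of CPM of mdx5cv diaphragm over WT diaphragm in cycling fibroblasts (y axis, log scale) against the same ratio in depth neighbours (x axis, log scale), 1 library each. Points are genes of 5 lists and the line marks equal ratios. The ratios lie on the same side of 1 for 10 of 12 collagens, 12 of 15 injury matrix genes, 14 of 15 genes of the Pi16 and Dpp4 state, 19 of 19 immediate early genes and 11 of 12 interferon genes.

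Genes of G2 and M phase had lower CPM in cycling cells of the mdx5cv diaphragm, and most S phase genes were not called. Of 40 G2 and M genes 34 were lower in its cycling cells than in those of WT diaphragm, and none higher, with a median log2 ratio of -1.47. Of 22 chromatin genes 16 were lower, and of 35 S phase genes 8, beside the 15.7% of all genes called lower. Without the 21 cells 6 S phase genes were lower and 3 higher. Stmn1, a tubulin-binding protein of dividing cells, was at 770.8 CPM against 3074, and Hist1h2ap, a replication histone, at 150.3 against 2130. Cdkn2c had a ratio of 0.188 (0.125 to 0.280). The median cycle sum was 8 in these mdx5cv cells and 61 in the WT cells, so the 2 groups were not matched for how far the cells were into the cycle. Among cells with a cycle sum of at least 10, 28 of the G2 and M genes were lower. Median depths there were 24547 UMIs in mdx5cv diaphragm and 11485.5 in WT diaphragm, so this limit did not match the groups either. With the limit of 3 and without the 21 cells, 35 were lower. Muscle stem cell genes went the other way, 6 of 7 being higher in the mdx5cv cells, with 48 UMIs of Myod1 against 0. None was called without the 21 cells, but Myod1 and other myogenic genes chose which cells to leave out. That loss therefore came with the choice.

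Between the dystrophic muscles, cycling cells of quadriceps had more collagen transcript than those of diaphragm. Of 6947 genes 983 were called higher in mdx5cv quadriceps (14.1%) and 459 lower (6.61%). This comparison shares the mdx5cv diaphragm library with the last one. Of 14 collagens 9 were higher and none lower (7 without the 21 cells), and of 17 genes that process collagen 10 were higher. Col1a1 was at 12390 CPM against 4652, a ratio of 2.66 (2.55 to 2.78), and 1.599 in neighbours. Fn1, fibronectin, was at 3500 CPM against 930.8, a ratio of 3.76 (3.42 to 4.15), and 3.24 in neighbours. Cxcl14 had a ratio of 10.6 (7.63 to 15.1), and 4.57 in neighbours. Pdgfrb, a receptor for platelet-derived growth factor, had a ratio of 2.70 (1.97 to 3.78), and 1.40 in neighbours. Of 19 growth factor receptors 10 were higher and 1 lower.

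Other genes were higher in cycling cells of the mdx5cv diaphragm. Timp1 had a quadriceps to diaphragm ratio of 0.664 (0.609 to 0.724), close to 0.694 in neighbours. Thbs4 had a ratio of 0.648 (0.601 to 0.699) in cycling cells and 0.998 in neighbours. Acta2, smooth muscle actin, was at 299.7 CPM in quadriceps and 524.2 in diaphragm, a ratio of 0.572 (0.481 to 0.680), where neighbours had 1.55. Pi16 was at 6.76 CPM against 84.8. Col6a5, a collagen VI chain, had 0 UMIs against 43. Of 18 immediate early and heat shock genes 9 were lower in quadriceps, and 3 without the 21 cells. Of 7 muscle stem cell genes 5 were lower in quadriceps, and none without the 21 cells, which were chosen in part by such genes. Of 38 G2 and M genes 4 were higher and 2 lower, and 17 were higher and none lower without the 21 cells.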

How the data were processed

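Single-cell RNA was measured in 4 libraries, 1 for each genotype and muscle. The deposited matrices hold UMI counts per gene and barcode, not normalized. They were made by the authors with Cell Ranger 5.0.0 on build mm10, per the submitters' processing notes. The protocol in the labels aimed at 5000 cells per library, and 4911 to 8334 barcodes passed the limits used here. Total UMIs per library ran from 18837891 to 62780685. Libraries shared 5 to 17 barcodes per pair.

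The cells and the gene lists were chosen with earlier results of these data known. Each cycling cell was given 3 depth neighbours, nearest in total UMIs and without replacement. UMIs were summed per library and class and tested with edgeR 4.0.16 in R 4.3.3 (quasi-likelihood test, TMM, library as a block, filterByExpr with a minimum count of 10, Benjamini-Hochberg adjustment), leaving out the 13 genes of the rule. The fit had 2 residual degrees of freedom. On simulated data with 7507 genes it recovered 38% of genes raised 2-fold and 29.5% of genes lowered 2-fold. At 4-fold it recovered 100% and 94.9%, and it called 0.109% of unchanged genes. The simulation gave every gene the same dispersion and held no single barcodes that dominate a sum, so these rates need not hold for the data. P-values measure how the difference between cycling cells and neighbours varies across the 3 fitted libraries, beside variation pooled over genes. These libraries differ in genotype or muscle and are not replicates. In each library cycling cells and neighbours came from the same capture.

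Named genes were the members of the lists past the test and, outside the cell cycle lists, the 15 largest rises and 15 largest falls with the same direction in each library, beside the markers, Col1a1 and Col3a1. Genotype and muscle ratios are of CPM, with exact conditional binomial intervals, and where a library had 0 UMIs no ratio is printed. Doublets were not removed; an alternative leaves out the 5% of barcodes with the highest Scrublet scores (scanpy 1.11.5), which held 4 of the 99 cells. Promoters are from RefSeq, build GRCm38.p6, matched by symbol. Alternatives were DESeq2 1.42.0, other limits, other neighbours, thinned UMIs and libraries left out.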

Additional observations from a re-analysis of the deposited data

How the results depend on the processing

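The share of cycling fibroblasts followed the limit and the depth. In mdx5cv quadriceps it was 1.62% after thinning to 2000 UMIs, 4.9% with a cycle sum of at least 2 and 2.07% with at least 10. In mdx5cv diaphragm it was 0.386% after thinning and 0.464% with at least 10. In WT quadriceps it was 0 with a fibroblast sum of at least 8, with at most 5% mitochondrial UMIs, or without cells holding markers of other classes. The limits of at least 10 and on other classes were chosen after seeing the data. Genes higher in cycling cells numbered 872 against all fibroblasts with a cycle sum of 0, 73 with cells thinned, 325 with DESeq2, 231 without the library block and 299 to 468 with a library left out. Genes lower numbered 831, 79, 129 and 9 in the first 4 of these, 480 without the filter on low counts and 137 to 235 with a library left out. Timp1 and Postn reversed, to 0.28 and 0.29, against all fibroblasts with a cycle sum of 0, which are shallower. Thinning gave 152 genes higher and 278 lower for mdx5cv diaphragm over WT diaphragm, and 184 and 213 for mdx5cv quadriceps over mdx5cv diaphragm. Of 99 named genes outside the cell cycle lists, 21 were called in every setting that tested them, 78 lost the call in at least 1 and 2 reversed. The loss was widest without the library block, where 76 of 99 lost it, followed by 39 of 98 without mdx5cv diaphragm and 35 of 99 with DESeq2. Without the cells of other classes 27 of 93 lost it. The comparison of cycling cells with neighbours was paired within libraries by the library block. For genotype and muscle, no paired analysis was possible because each group is 1 library. With 1 cycling cell, WT quadriceps allows no genotype comparison in that muscle.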

Other observations

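The limits that chose the cells left out other barcodes with cycle genes. A further 71 barcodes reached the fibroblast and cycle sums but had an other-cell sum over 1. They held 132.9 UMIs of the 10 macrophage genes per 10000, against 3.34 in the 85 cycling fibroblasts with an other-cell sum of 0 and 5.90 in the 14 with a sum of 1, and 64 of them held at least 20 such UMIs. The step lay at the limit: the 8 barcodes with a sum of 2 held 98.8. Of barcodes that reached both the fibroblast sum and an other-cell sum over 1, 15.5% (55 of 354) in mdx5cv quadriceps and 5.17% (15 of 290) in mdx5cv diaphragm had a cycle sum of at least 3, at median depths of 12460 and 11124 UMIs.

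Barcodes just under the fibroblast limit were mostly myogenic by markers. Of 34 cycling barcodes with a fibroblast sum of 1 to 3, 21 held at least 4 UMIs of the 7 myogenic genes, and 3 of the 5 cycling fibroblasts with a sum of 4 to 6 did. In all, 12 of the 99 cells had a fibroblast sum of 4 to 10, of which 7 were myogenic by this limit, and 80 had a sum of 20 or more.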
